A study of Homo sapiens with 4 samples.

Results

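The nuclear genes for the subunits of oxidative phosphorylation were compared in spheroids of 4 established human colon cell lines. Members were taken by name from the gene table: the NDUF, UQCR, COX and ATP5 structural subunit families, the 4 SDH genes and CYC1. Assembly factors named NDUFAF, names with a hyphen and pseudogenes were dropped. This left 90 of 58740 genes, all of them protein-coding and spread over 22 chromosomes. They comprise 37 genes of complex I, 4 of complex II, 10 of complex III, 19 of complex IV and 20 of the ATP synthase. The naming rule uses no measured value. NDUFA4 and its paralogue NDUFA4L2 were placed with complex IV because NDUFA4 is now known as a subunit of that enzyme.

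The groups were HCT116 and DLD-1, lines from colorectal carcinomas, SW620, a line from a lymph node metastasis of a colorectal carcinoma, and HCEC-1CT, a line of normal colon origin immortalised by introducing CDK4 and TERT. All were labelled wild type and epithelial, and all were grown for 7 days as spheroids on a low-attachment surface in medium with 10% fetal bovine serum. RNA of compact spheroids was pooled from several culture plates into 1 library per line. There were therefore no replicates, no test was possible, and the cancer lines do not stand in for repeats of each other. Values are FPKM, fragments scaled to transcript length and library size, so that levels can be compared between genes. Depth corresponded to about 25300000 fragments for HCT116, 23300000 for DLD-1 and 28700000 for SW620, against 29500000 in HCEC-1CT.

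The HCEC-1CT library did not carry the epithelial markers of its label. All 5 epithelial markers examined were higher in every cancer line, with summed levels of 1532 FPKM in HCT116, 5048 FPKM in DLD-1 and 6694 FPKM in SW620, against 7.15 in HCEC-1CT, where EPCAM, CDH1 and KRT19 were listed at 0. All 7 fibroblast and mesenchymal markers were lower in every cancer line, with sums of 13.6, 0.879 and 250.2 FPKM in HCT116, DLD-1 and SW620, against 1570.3 in HCEC-1CT. The part that this difference in marker expression plays in the values below was not tested, and with 1 library per line, cancer origin, cell identity and library cannot be told apart.

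Oxidative phosphorylation is the process by which mitochondria make most of the ATP of a resting cell. Complexes I and II pass electrons from NADH and succinate to ubiquinone, complex III passes them to cytochrome c and complex IV to oxygen, while complexes I, III and IV pump protons that drive the ATP synthase. A few core subunits are encoded by mitochondrial DNA, and all others by the nuclear genes described here. NRF1 and the ETS factor GABP are known regulators of many of these genes, and normal colon epithelium is known for burning butyrate in its mitochondria.

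Promoter sequence is shown for 6 members, chosen after their values were seen: 5 genes that were higher in all 3 cancer lines, and NDUFV2, the member with the highest HCEC-1CT level among those that were lower in all 3. Each run is the 120 bases before the first start that RefSeq lists for the gene (build GRCh38.p14), written 5′ to 3′ on the strand of the gene. Capitals mark a match to CCGGAAG, an ETS-like motif, or to the NRF1-like motif searched, GCGCA and GCGC with any base between them, on either strand.
COX6A1 (ETS-like match, chr12:120437993-120438112, plus strand): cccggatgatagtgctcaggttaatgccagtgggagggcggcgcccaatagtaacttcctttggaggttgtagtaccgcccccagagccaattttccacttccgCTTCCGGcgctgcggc
UQCRQ (ETS-like match, chr5:132866522-132866641, plus strand): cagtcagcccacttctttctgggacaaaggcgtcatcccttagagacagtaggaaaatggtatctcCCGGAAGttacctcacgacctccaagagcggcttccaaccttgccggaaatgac
ATP5PO (NRF1-like match, chr21:33915805-33915924, minus strand): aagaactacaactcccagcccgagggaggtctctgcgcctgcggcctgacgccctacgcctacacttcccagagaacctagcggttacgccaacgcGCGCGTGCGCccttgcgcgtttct
NDUFA12 (NRF1-like match, chr12:95003698-95003817, minus strand): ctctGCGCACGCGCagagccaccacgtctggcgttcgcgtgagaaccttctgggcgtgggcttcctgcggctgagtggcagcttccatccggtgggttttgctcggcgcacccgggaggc
ATP5IF1 (no match, chr1:28236004-28236123, plus strand): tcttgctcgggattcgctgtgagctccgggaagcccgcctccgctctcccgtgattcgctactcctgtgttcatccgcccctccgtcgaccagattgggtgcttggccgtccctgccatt
NDUFV2 (no match, chr18:9102579-9102698, plus strand): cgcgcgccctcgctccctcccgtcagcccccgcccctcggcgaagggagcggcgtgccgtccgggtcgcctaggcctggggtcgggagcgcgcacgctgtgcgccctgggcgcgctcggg

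Most subunit genes were at least 2-fold higher in HCT116 and SW620 than in HCEC-1CT, and fewer were in DLD-1. Of the 90 members, 85 reached 1 FPKM in a library and were compared. The others were COX4I2, COX6A2 and COX7B2, listed at 0 in all 4 libraries, and COX8C and ATP5MGL, below 1 FPKM. Differences are log2 ratios of FPKM plus 1 to HCEC-1CT, counted at 2-fold or more. In HCT116, 51 members were higher (60% of those compared, against 26.9% of the 18637 genes of the whole table with at least 1 FPKM in a library) and 2 were lower (background 13.1%). In DLD-1, 23 were higher (27.1%, background 25.9%) and 1 was lower (background 12.9%). In SW620, 55 were higher (64.7%, background 24.8%) and 1 was lower (background 14.1%). At 2-fold the DLD-1 share of higher members was thus near that of all genes, while those of HCT116 and SW620 were above it. At any size, 77 of the 85 lay above HCEC-1CT in HCT116 (background 60.7%), 75 in DLD-1 (background 63.6%) and 77 in SW620 (background 58.9%). At 1.5-fold all 3 shares were above that of all genes, with 62 members higher in HCT116 (72.9%, background 38.8%), 49 in DLD-1 (57.6%, background 39.7%) and 64 in SW620 (75.3%, background 36.4%). At 4-fold the shares were near or below it, with 8 higher in HCT116 (9.41%, background 9.04%), 3 in DLD-1 (3.53%, background 9.24%) and 7 in SW620 (8.24%, background 8.93%).

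The members' median log2 ratio was 1.17 for HCT116, 0.69 for DLD-1 and 1.22 for SW620. Over all genes compared, the medians were 0.27, 0.33 and 0.21 in the same lines. Genes that reached 1 FPKM in every library lay above HCEC-1CT by medians of 0.38, 0.42 and 0.30, so a shift common to all genes is contained in every ratio here. Relative to that shift, the members' medians were 0.79 for HCT116, 0.27 for DLD-1 and 0.92 for SW620. After scaling by it, 31 members were higher in HCT116 (36.5%, background 20.2%), 10 were in DLD-1 (11.8%, background 18.7%) and 32 were in SW620 (37.6%, background 20.2%). The DLD-1 share was then below that of all genes. Together, the 90 genes held 1.52% of the FPKM of nuclear protein-coding genes in the HCT116 library, 1.14% in DLD-1 and 1.49% in SW620, against 0.725% in HCEC-1CT.

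In 67 of the 85 members every cancer line lay above HCEC-1CT at some size (78.8%, against 39.5% of all genes), and in 3 every cancer line lay below it (background 18.9%). After scaling by the common shift, 51 of the 85 lay above it in every line. Past 2-fold in all 3 lines, 16 were higher (18.8%, background 9.35%) and only COX7A1 was lower (background 7.11%). At 1.5-fold, 38 were higher in all 3 (44.7%, background 16.8%). The 3 comparisons share the HCEC-1CT library. The 16 were NDUFA12, NDUFA13, NDUFB7, NDUFB8, NDUFB9, NDUFB10 and NDUFC1 of complex I, CYC1, UQCRB and UQCRQ of complex III, COX5A, COX6A1, COX6B1 and COX7C of complex IV, and ATP5PO and ATP5IF1 of the ATP synthase. After scaling by the common shift, 6 of them passed in all 3 lines (7.06%, background 6.66%): NDUFA12, UQCRQ, COX5A, COX6A1, COX7C and ATP5IF1. Estimated fragments behind a compared member had a median of 522 in HCEC-1CT, with 8 members under 100, so counting error is small beside a 2-fold difference for most of them.

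**Figure D1:**
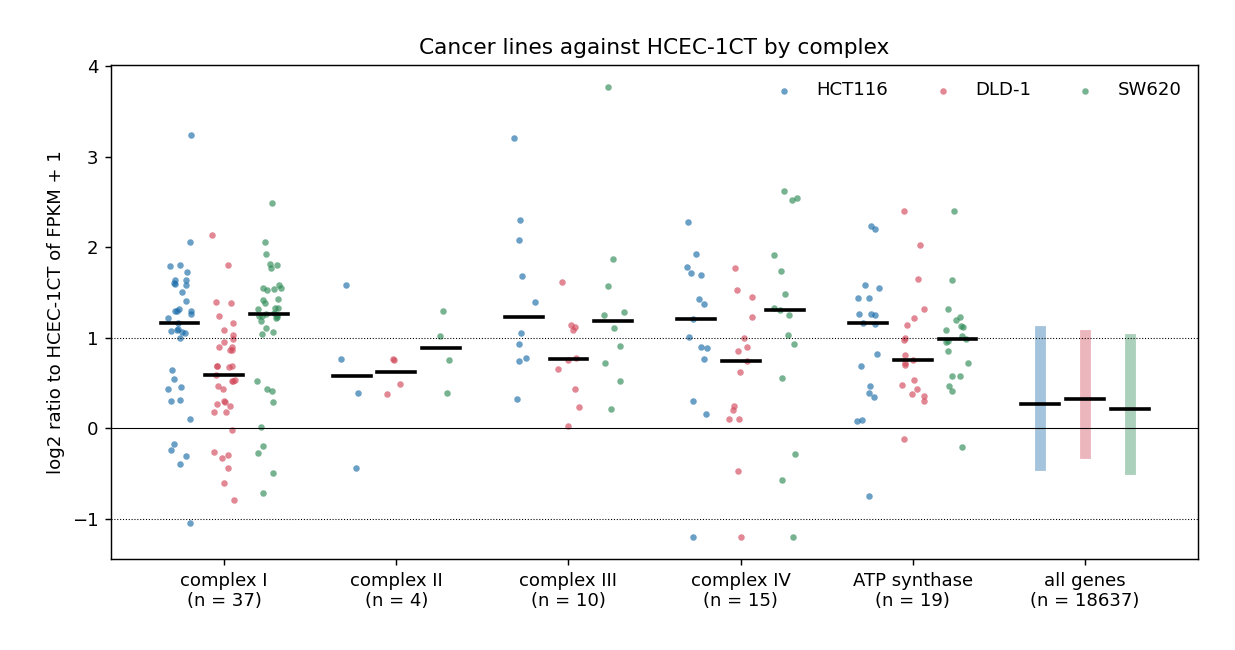
Log2 ratio of FPKM plus 1 to HCEC-1CT for each compared member (points), by complex and cancer line, with the median as a black bar; the rightmost columns show the median and interquartile range of all 18637 genes compared, and dotted lines mark 2-fold. The medians of complexes I, III and IV lie above 2-fold in HCT116 and SW620 and below it in DLD-1.

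In complex I, 24 of 37 genes were higher in HCT116, 8 were in DLD-1 and 28 were in SW620, and 1 was lower, in HCT116. The shares higher were 64.9%, 21.6% and 75.7%, against 26.9%, 25.9% and 24.8% of all genes, so DLD-1 lay below that share. The median log2 ratios were 1.17, 0.59 and 1.26 in these lines. Of the 7 nuclear core subunits, which carry the flavin and the iron-sulfur clusters, 4 were higher in HCT116, 0 were in DLD-1 and 4 were in SW620. Their share higher was thus 57.1% in HCT116 and in SW620. NDUFV1, which binds NADH and the flavin, had 48.9 FPKM in HCT116, 32.9 FPKM in DLD-1 and 50.3 FPKM in SW620, against 16.5 in HCEC-1CT. All 3 cancer lines lay above HCEC-1CT, and DLD-1 fell short of 2-fold at a log2 ratio of 0.95. NDUFV2, its iron-sulfur partner in the NADH module, went the other way, with 58.5 FPKM in HCT116, 69.7 FPKM in DLD-1 and 74.1 FPKM in SW620, against 122 in HCEC-1CT. HCEC-1CT was the highest of the 4 lines for this gene, and only the HCT116 ratio of −1.04 passed 2-fold (DLD-1 −0.80, SW620 −0.71, each with a counting standard error of 0.04 to 0.05). On coding transcripts alone the HCT116 ratio was −0.79, and on estimated fragments scaled to depth it was −0.97, both short of 2-fold.

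The genes of the 2 adjoining partner subunits therefore stood in different proportions. NDUFB9 had the highest level of all 37 complex I genes in HCT116 and NDUFB4 had it in SW620, whereas NDUFV2 held that place in DLD-1 and HCEC-1CT. NDUFS1, the large iron-sulfur subunit of the NADH module, had 8.25, 13.4 and 13.9 FPKM in HCT116, DLD-1 and SW620, against 11.1 in HCEC-1CT. It passed 2-fold in no line, and the HCEC-1CT value lay between those of HCT116 and the other cancer lines. NDUFS8 and NDUFS7, which carry the clusters nearest to ubiquinone, were higher in HCT116 and SW620. NDUFS8 had 62.7 FPKM in HCT116, 31.0 FPKM in DLD-1 and 49.3 FPKM in SW620, against 20.3 in HCEC-1CT, and NDUFS7 had 14.9, 9.98 and 25.8, against 6.59. NDUFS7 fell short in both on coding transcripts alone, with ratios of 0.75 in HCT116 and 0.83 in SW620. NDUFS3, another subunit of the ubiquinone-binding module, had 24.2 FPKM in HCT116, 21.3 FPKM in DLD-1 and 31.1 FPKM in SW620, against 10.9 in HCEC-1CT.

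Accessory subunits surround the core and are needed for its assembly and stability. Of the 13 NDUFB and NDUFC genes, whose products sit in the membrane arm, 9 were higher in HCT116, 5 were in DLD-1 and 11 were in SW620. These are 69.2%, 38.5% and 84.6%, each above the share of all genes. NDUFB9 had 106 FPKM in HCT116, 25.8 FPKM in DLD-1 and 62.4 FPKM in SW620, against 10.3 in HCEC-1CT. Its log2 ratios of 3.23, 1.24 and 2.48 were the highest of complex I in HCT116 and SW620. NDUFC1 had 11 FPKM in HCT116, 20.4 FPKM in DLD-1 and 17.6 FPKM in SW620, against 3.89 in HCEC-1CT, and its gene-level ratio of 2.13 was the highest of the complex in DLD-1. The smaller part of this was on transcripts annotated as coding, which held 28.1% of NDUFC1 in the HCT116 library, 2.07% in DLD-1 and 0.187% in SW620, against 4.55% in HCEC-1CT. On those alone its ratios were 1.79 for HCT116, 0.27 for DLD-1 and −0.19 for SW620, so that it no longer passed in DLD-1 or SW620. Levels of NDUFB7, NDUFB8 and NDUFB10 spanned 29.3 to 55.9 FPKM over the cancer lines and 11.6 to 19 in HCEC-1CT. All 3 are among the 16 genes named above, chosen by passing in every line. By contrast NDUFB5 had 20.5, 20.2 and 20.2 FPKM in HCT116, DLD-1 and SW620, against 13.8 in HCEC-1CT, and passed in none.

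Among the other 17 accessory genes, 11 were higher in HCT116, 3 were in DLD-1 and 13 were in SW620. These are 64.7%, 17.6% and 76.5%, and DLD-1 lay below its 25.9% of all genes. NDUFA12, attached to the NADH module, had 31.5 FPKM in HCT116, 26.1 FPKM in DLD-1 and 22.4 FPKM in SW620, against 6.79 in HCEC-1CT. NDUFA13, also known as GRIM-19, had 43.6, 39.7 and 41.6 FPKM in HCT116, DLD-1 and SW620, against 17.2 in HCEC-1CT. The ratios were 2.06, 1.80 and 1.59 for NDUFA12 and 1.29, 1.16 and 1.23 for NDUFA13. NDUFA12 still passed on coding transcripts alone, with ratios of 1.01 for HCT116, 1.81 for DLD-1 and 1.56 for SW620. NDUFA13 then had 0.42 for HCT116, 0.59 for DLD-1 and 1.26 for SW620, and passed only in SW620. NDUFAB1, the mitochondrial acyl carrier protein, had 60.1 FPKM in HCT116, 35.5 FPKM in DLD-1 and 45.6 FPKM in SW620, against 18.6 in HCEC-1CT. NDUFA9 differed in order, with 5.11 FPKM in HCT116, 12 FPKM in DLD-1 and 11.3 FPKM in SW620, against 3.92 in HCEC-1CT, and passed only in DLD-1 and SW620. NDUFA11, a membrane arm subunit, had 14.3, 14.1 and 11.8 FPKM in the cancer lines, against 17.1 in HCEC-1CT. NDUFV3, an accessory subunit of the NADH module, had 12.1, 6.71 and 7.47 FPKM in HCT116, DLD-1 and SW620, against 8.68 in HCEC-1CT.

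**Figure D2:**
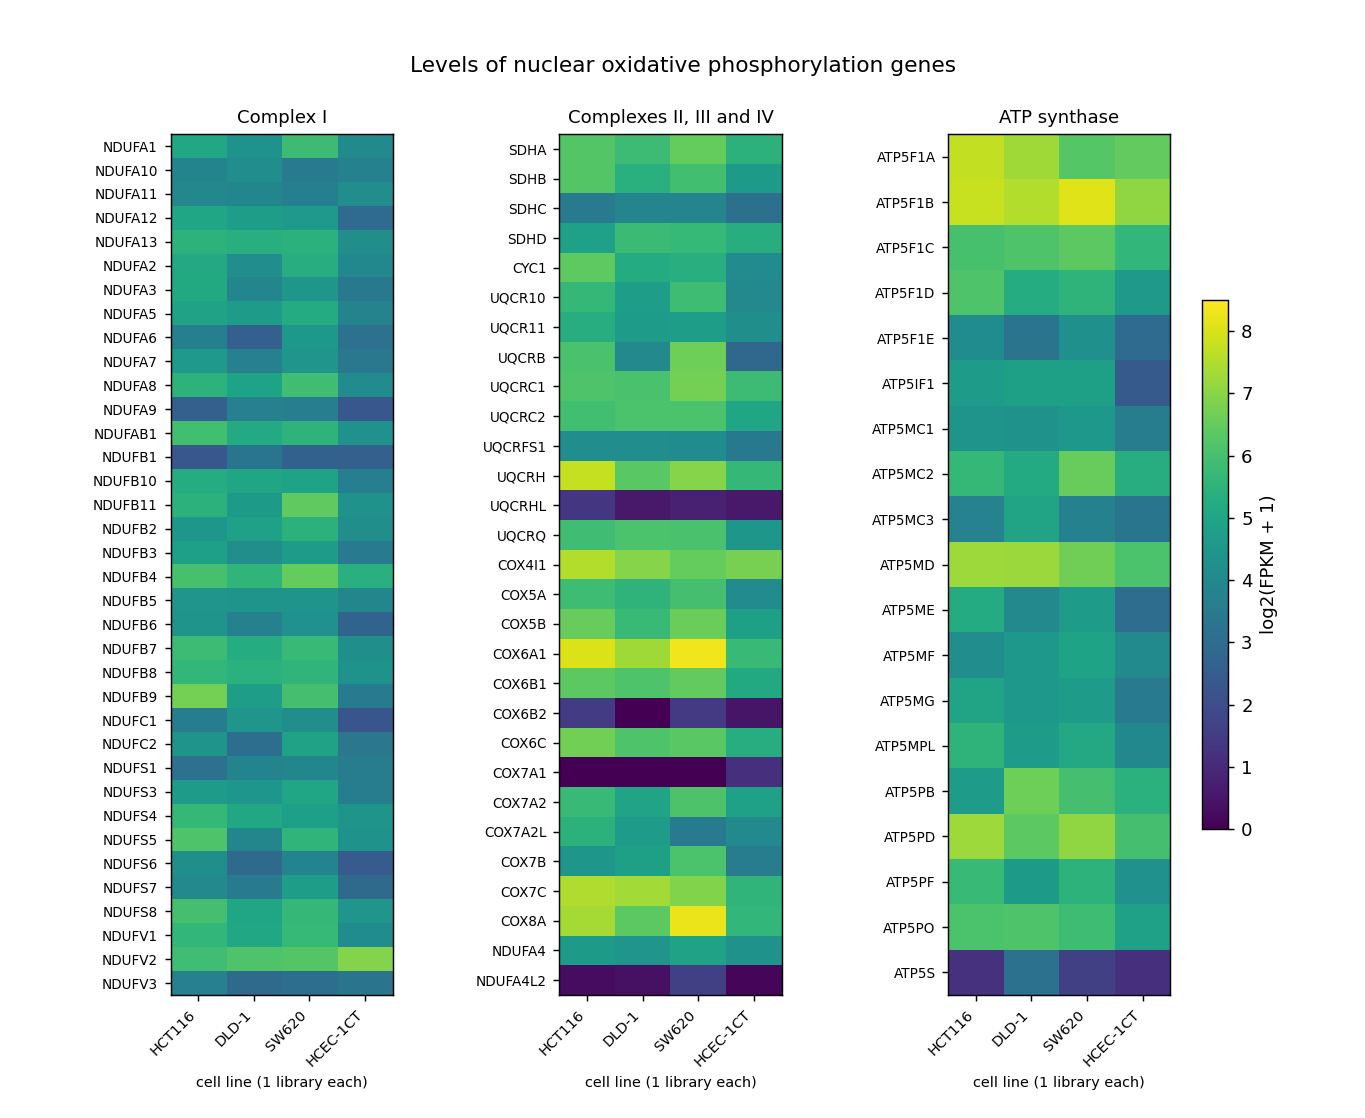
Levels of the compared members, all but 1, as log2(FPKM + 1), 1 column per cell line and 1 row per gene, by complex. HCEC-1CT is the lowest column in 67 rows, and NDUFV2, NDUFA11 and COX7A1 are the rows in which it is the highest.

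Complex II, succinate dehydrogenase, has all of its subunits encoded in the nucleus, and its genes differed less than those of complex I in HCT116 and SW620, though not in DLD-1. Only SDHB in HCT116 and SDHA and SDHB in SW620 were 2-fold higher, and none passed in DLD-1. The median log2 ratios were 0.58 for HCT116, 0.62 for DLD-1 and 0.89 for SW620, beside 1.17, 0.59 and 1.26 for complex I. SDHA, the flavoprotein that oxidises succinate, had 73.5 FPKM in HCT116, 55.8 FPKM in DLD-1 and 87.9 FPKM in SW620, against 42.7 in HCEC-1CT. SDHB, the iron-sulfur subunit, had 73.2, 41.1 and 60.0 FPKM in HCT116, DLD-1 and SW620, against 23.8 in HCEC-1CT. At gene level SDHA and SDHB were thus nearly level in HCT116, and SDHA was the higher in the other lines. On coding transcripts alone this order held only in SW620, with 63.9 FPKM for SDHA against 56.2 for SDHB. SDHA then lay below SDHB in HCT116 (43.0 against 67.6 FPKM), in DLD-1 (9.51 against 37.0 FPKM) and in HCEC-1CT. SDHA had coding-transcript ratios of 1.94 for HCT116, −0.13 for DLD-1 and 2.50 for SW620, so that HCT116 passed and DLD-1 lay just below HCEC-1CT. The membrane anchor SDHC had 10.4, 13.7 and 13.7 FPKM in the cancer lines, against 7.72 in HCEC-1CT. The other anchor, SDHD, had 28 FPKM in HCT116, 54.1 FPKM in DLD-1 and 50.5 FPKM in SW620, against 38.3 in HCEC-1CT, so that HCT116 lay below HCEC-1CT and the other cancer lines above it.

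Complex III was the only complex in which all compared members, 10 of 10, lay above HCEC-1CT in every cancer line; after scaling by the common shift, UQCRC1 in HCT116 and DLD-1 and UQCRHL in DLD-1 lay below it. Past 2-fold there were 6 genes for HCT116, 4 for DLD-1 and 6 for SW620, with median log2 ratios of 1.23, 0.77 and 1.18. The shares were 60%, 40% and 60%, against 26.9%, 25.9% and 24.8% of all genes. Of the core subunits, CYC1, the cytochrome that hands electrons to cytochrome c, had 83.6 FPKM in HCT116, 36.2 FPKM in DLD-1 and 39.8 FPKM in SW620, against 16.1 in HCEC-1CT. HCT116 was highest, and all 3 lines passed 2-fold. UQCRFS1, the Rieske iron-sulfur protein, had 16.9, 17.1 and 16.7 FPKM in HCT116, DLD-1 and SW620, against 9.72 in HCEC-1CT, and passed in none. UQCRC2, a core structural subunit, had 60.1, 66.8 and 68.0 FPKM in the cancer lines, against 30.9 in HCEC-1CT, and passed in DLD-1 and SW620. UQCRC1, the other structural core subunit, had 70.1 FPKM in HCT116, 65.8 FPKM in DLD-1 and 105 FPKM in SW620, against 55.6 in HCEC-1CT, short of 2-fold in each.

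Among the 6 small accessory subunits of complex III the median ratios were 1.54 for HCT116, 0.72 for DLD-1 and 1.43 for SW620, beside 0.84, 0.92 and 1.01 for the 4 core subunits. They were thus larger than the core medians in HCT116 and SW620 and smaller in DLD-1. UQCRB, a subunit next to the ubiquinone site, had 65.3 FPKM in HCT116, 14.9 FPKM in DLD-1 and 96.9 FPKM in SW620, against 6.20 in HCEC-1CT. By FPKM its log2 ratio of 3.76 in SW620 was the highest of all members in any line, and its ratio in DLD-1 was 1.15. Estimated fragments scaled to depth are FPKM multiplied by annotated transcript length. They remove the length assigned only if FPKM was made with the same lengths, which is not known. On them the UQCRB ratios were 2.78 for HCT116, 0.81 for DLD-1 and 2.37 for SW620, and DLD-1 no longer passed. The SW620 value then lay below COX8A (2.60) and COX6A1 (2.52) in that line, and below NDUFB9 in HCT116 (3.28). UQCRQ, whose promoter is printed above, had 58.4, 67.8 and 65.9 FPKM in HCT116, DLD-1 and SW620, against 21.5 in HCEC-1CT, an increase of similar size in each. UQCRH, the hinge protein between CYC1 and cytochrome c, had 213 FPKM in HCT116, 79.1 FPKM in DLD-1 and 122 FPKM in SW620, against 49.7 in HCEC-1CT. UQCR10 had 50.1 FPKM in HCT116, 26.4 FPKM in DLD-1 and 57.5 FPKM in SW620, against 15 in HCEC-1CT, and UQCR11 had 38.4, 24.6 and 26.1, against 17.9. UQCRHL, an intronless copy of UQCRH, stayed between 0.479 and 1.54 FPKM in all 4 lines.

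In complex IV, cytochrome c oxidase, the catalytic subunits are mitochondrial and the nuclear ones form the surrounding shell. Of the 11 main nuclear subunits, 7 were higher in HCT116, 5 were in DLD-1 and 9 were in SW620, with median log2 ratios of 1.38, 0.90 and 1.33. The shares higher were 63.6%, 45.5% and 81.8%, against 26.9%, 25.9% and 24.8% of all genes. COX6A1 had 262 FPKM in HCT116, 156 FPKM in DLD-1 and 316 FPKM in SW620, against 53.3 in HCEC-1CT. COX8A, a small membrane subunit, had 161, 81.5 and 301 FPKM in HCT116, DLD-1 and SW620, against 48.1 in HCEC-1CT. Both were highest in SW620, where they were the members with the highest FPKM of all. COX7C had 178 FPKM in HCT116, 159 FPKM in DLD-1 and 117 FPKM in SW620, against 46.1 in HCEC-1CT, and was lowest in SW620 among the cancer lines. COX5A had 57.6, 45.4 and 63.4 FPKM in HCT116, DLD-1 and SW620, against 16 in HCEC-1CT. COX6B1, which links the monomers of the enzyme dimer, had 81.6, 70.8 and 87.3 FPKM in the cancer lines, against 34.8 in HCEC-1CT, with a ratio of just 1.00 in DLD-1.

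COX4I1, an early-assembling subunit to which ATP binds, did not follow the shell as a whole. It had 183 FPKM in HCT116, 123 FPKM in DLD-1 and 88.1 FPKM in SW620, against 107 in HCEC-1CT, so SW620 lay below HCEC-1CT and no line passed 2-fold. On coding transcripts alone its ratios were 1.05 for HCT116, 0.73 for DLD-1 and 0.13 for SW620, with HCT116 just past 2-fold and SW620 no longer below. On estimated fragments scaled to depth, DLD-1 lay just below HCEC-1CT, with a ratio of −0.08. COX7B had 21.4 FPKM in HCT116, 27.1 FPKM in DLD-1 and 67.9 FPKM in SW620, against 11 in HCEC-1CT, and COX5B had 91.7, 52.5 and 94.8, against 27.7. NDUFA4 had 23.9, 20.7 and 28.7 FPKM in the cancer lines, against 19.2 in HCEC-1CT, without passing. COX6C and COX7A2 had 101 and 53.1 FPKM in HCT116, 70.3 and 30.4 in DLD-1, and 79.5 and 68.7 in SW620, against 38.4 and 28.3 in HCEC-1CT. DLD-1 was the lowest cancer line for both. COX6C had coding-transcript ratios of 1.24 for HCT116, 0.45 for DLD-1 and −0.55 for SW620, which puts SW620 lowest.

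The tissue-restricted paralogues of complex IV were at or near 0 in all lines, as far as the table lists them. COX4I2, COX6A2 and COX7B2, known from lung, muscle and testis, were listed at 0 throughout. COX6B2, known from testis, had 1.83 FPKM in HCT116, 0.0206 FPKM in DLD-1 and 1.70 FPKM in SW620, against 0.410 in HCEC-1CT. COX7A1, the heart and muscle form, was listed at 0 in all 3 cancer lines and at 1.29 FPKM in HCEC-1CT, and is counted as lower on the scale of FPKM plus 1. NDUFA4L2, a paralogue of NDUFA4 known to be induced by hypoxia, had 0.218 FPKM in HCT116, 0.296 FPKM in DLD-1 and 2.05 FPKM in SW620, against 0.0929 in HCEC-1CT, and passed only in SW620. COX7A2L, a factor that joins complexes III and IV into supercomplexes, had 42.8 FPKM in HCT116, 24.1 FPKM in DLD-1 and 10.0 FPKM in SW620, against 15.3 in HCEC-1CT. Its log2 ratio was 1.42 in HCT116 and −0.57 in SW620, and the SW620 value fell short of 2-fold.

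Of 19 compared ATP synthase genes, 11 were higher in HCT116, 6 were in DLD-1 and 9 were in SW620, and none was lower. The shares higher were 57.9%, 31.6% and 47.4%, against 26.9%, 25.9% and 24.8% of all genes. The median log2 ratios were 1.17, 0.75 and 0.99. In the F1 head, ATP5F1B, the catalytic beta subunit, had 218 FPKM in HCT116, 183 FPKM in DLD-1 and 269 FPKM in SW620, against 135 in HCEC-1CT. ATP5F1A, its alpha partner, had 210.3 FPKM in HCT116, 154 FPKM in DLD-1 and 75.6 FPKM in SW620, against 87.3 in HCEC-1CT. At gene level the alpha and beta genes, whose products form the head in equal numbers, were closest in HCT116 and furthest apart in SW620. In SW620 ATP5F1A was below its HCEC-1CT value. Most ATP5F1A signal was on transcripts not annotated as coding, with 5.88% on coding ones in the HCT116 library, 16.8% in DLD-1 and 4.94% in SW620, against 13.7% in HCEC-1CT. On those alone its ratios were 0.05 for HCT116, 1.05 for DLD-1 and −1.45 for SW620, so the HCT116 value no longer passed and SW620 was lower by over 2-fold. ATP5F1A then had 12.4 FPKM in HCT116, against 207 for ATP5F1B, so their near-equal levels there were not seen on coding transcripts. ATP5F1D, the delta subunit of the central stalk, had 70.7 FPKM in HCT116, 37.8 FPKM in DLD-1 and 45.4 FPKM in SW620, against 22.9 in HCEC-1CT, and passed only in HCT116, but on coding transcripts alone in all 3.

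The c ring of the membrane motor is built from 1 mature protein that 3 genes encode, and these genes differed between lines. ATP5MC1 had 20.1, 19.1 and 22.2 FPKM in HCT116, DLD-1 and SW620, against 10.9 in HCEC-1CT. ATP5MC2 had 49.1 FPKM in HCT116, 35.5 FPKM in DLD-1 and 91.8 FPKM in SW620, against 38.5 in HCEC-1CT, and passed only in SW620. ATP5MC3 had 12.7 FPKM in HCT116, 30.1 FPKM in DLD-1 and 12.2 FPKM in SW620, against 8.91 in HCEC-1CT, and passed only in DLD-1. The sum of the 3 was 81.9 FPKM in HCT116, 84.7 FPKM in DLD-1 and 126 FPKM in SW620, against 58.3 in HCEC-1CT. At gene level ATP5MC2 was the most abundant of them in every line. Coding transcripts held 28% of it in the HCT116 library, 27.7% in DLD-1 and 88.7% in SW620, against 88.0% in HCEC-1CT, and a transcript with a retained intron led in HCT116 and DLD-1. On coding transcripts alone ATP5MC2 had 13.7 FPKM in HCT116, 9.83 FPKM in DLD-1 and 81.4 FPKM in SW620, against 33.9 in HCEC-1CT. HCT116 and DLD-1 were then lower by over 2-fold, with ratios of −1.24 and −1.69. In both lines it also lay below the 17.6 FPKM of ATP5MC1 on coding transcripts.

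In the peripheral stalk, ATP5PO, the subunit that confers sensitivity to oligomycin, had 68.0, 70.7 and 57.4 FPKM in HCT116, DLD-1 and SW620, against 27.8 in HCEC-1CT. All 3 lines passed 2-fold, SW620 with a ratio of 1.02. ATP5PD and ATP5PF had 150.5 and 51.7 FPKM in HCT116, 81.5 and 24.0 in DLD-1, and 134 and 43.7 in SW620, against 62.4 and 18.5 in HCEC-1CT, and passed in HCT116 and SW620 alone, ATP5PF in SW620 only from FPKM and not from estimated fragments scaled to depth (0.86). ATP5PB, the b subunit, was the most uneven by FPKM, with 24.5 FPKM in HCT116, 98 FPKM in DLD-1 and 62.6 FPKM in SW620, against 41.6 in HCEC-1CT. From estimated fragments scaled to depth it was not. Its log2 ratio of HCT116 to DLD-1 was then −0.81, smaller in size than the 0.87 of ATP5PD and the 0.96 of ATP5PF. Of the 5 small membrane subunits, 4 were higher in HCT116 (80%), 1 was in DLD-1 (20%) and 3 were in SW620 (60%). ATP5ME, which helps synthases to pair, had 36.6 FPKM in HCT116, 15.1 FPKM in DLD-1 and 24.4 FPKM in SW620, against 7.18 in HCEC-1CT. ATP5MD had 152, 149 and 100.4 FPKM in the cancer lines, against 67.0 in HCEC-1CT.

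ATP5IF1, the inhibitor that stops the synthase from running backwards and splitting ATP, stood out among the synthase genes. It had 24.3 FPKM in HCT116, 27.4 FPKM in DLD-1 and 27.4 FPKM in SW620, against 4.36 in HCEC-1CT, the lowest value of the 4 lines. The log2 ratios of 2.24, 2.40 and 2.40 had counting standard errors of 0.14 to 0.15. It was the only member 4-fold higher in all 3 lines (1.18% of those compared, below the background of 2.68%). Relative to the common shift its HCT116 ratio was 1.85. From estimated fragments scaled to depth the ratios were 1.64, 1.91 and 1.96, past 2-fold and short of 4-fold in each line. The cancer lines lay close together and far from HCEC-1CT. ATP5S, an ATP synthase-associated factor now named DMAC2L, had 1.34 FPKM in HCT116, 7.97 FPKM in DLD-1 and 2.06 FPKM in SW620, against 1.21 in HCEC-1CT, and passed only in DLD-1.

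Between the cancer lines, DLD-1 had the lowest subunit levels. HCT116 was above DLD-1 in 62 of 85 members (background 46.9%) with a median log2 ratio of 0.46, against −0.02 over all genes. SW620 was above DLD-1 in 63 (background 44.3%) with a median of 0.45, against −0.07. HCT116 was above SW620 in 40 (background 52.9%), with a median of −0.05, against 0.05. At 2-fold, 12 of the 85 members were higher in HCT116 than in DLD-1 (background 16.4%) and 4 lower (background 18.1%). For SW620 against DLD-1 the counts were 18 higher (background 14.3%) and 4 lower (background 18.6%). For HCT116 against SW620 they were 4 higher (background 14.2%) and 4 lower (background 12.2%). Counts at 2-fold between cancer lines were thus at or below the background except for members higher in SW620 than in DLD-1.

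NDUFS5, an accessory subunit facing the intermembrane space, set DLD-1 apart most clearly in complex I. It had 70.5 FPKM in HCT116 and 46.6 in SW620, and 14 in DLD-1, below the 19.4 of HCEC-1CT. NDUFC2 was also lowest in DLD-1, with 20.3 FPKM in HCT116, 7.39 FPKM in DLD-1 and 28.8 FPKM in SW620, against 9.30 in HCEC-1CT. NDUFA6 had 11.7 FPKM in HCT116, 5.08 FPKM in DLD-1 and 22.2 FPKM in SW620, against 8.23 in HCEC-1CT. In these 3 genes DLD-1 alone among the cancer lines lay below HCEC-1CT, without passing 2-fold; on coding transcripts alone HCT116 did so too for NDUFA6, with a ratio of −0.30. In the other direction, ATP5MC3 and ATP5S were at least 2-fold higher in DLD-1 than in each of the other cancer lines by FPKM. From estimated fragments scaled to depth (to 1000000 in each library) neither call held for both lines. ATP5MC3 had 50.7 scaled fragments in HCT116, 94.0 scaled fragments in DLD-1 and 50.8 in SW620, short of 2-fold. ATP5S had 1.04 scaled fragments in HCT116, 6.11 scaled fragments in DLD-1 and 12.3 in SW620, so that SW620 was above DLD-1, and its HCT116 value lay below the 2.49 of HCEC-1CT.

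Location on a chromosome was examined after the values were seen, and only for chromosome 8 of the 22 that hold members. That chromosome holds NDUFB9 and UQCRB, whose high ratios are given above, so the group was not chosen independently of its values. The 4 members on chromosome 8, NDUFB9, UQCRB, COX6C and CYC1, had median log2 ratios of 2.75 for HCT116, 1.13 for DLD-1 and 1.87 for SW620. Over the 321 coding genes of that chromosome with at least 1 FPKM in every library, the medians were 0.59, 0.48 and 0.13. Copy number was not measured.

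The gene values are sums over transcripts, and the make-up of some members differed. Among members with several transcripts and at least 5 FPKM in both libraries, 71 could be compared for HCT116, 72 for DLD-1 and 72 for SW620. A switch was counted where another transcript led and the HCEC-1CT leader lost at least 50 percentage points. It occurred in 5 members in HCT116 (background 5.43% of all such genes), 3 in DLD-1 (background 5.19%) and 1 in SW620 (background 5.31%). The 5 were ATP5MC2, ATP5PB, NDUFA12, NDUFA6 and NDUFS4, the 3 were NDUFA6, NDUFB8 and NDUFS4, and NDUFS4 was the only one in SW620. The 5 of 71 in HCT116 lay somewhat above the background share, and the 3 of 72 in DLD-1 and 1 of 72 in SW620 lay below it.

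ATP5PB-201, a transcript annotated as non-coding, made up 0% of ATP5PB in the HCT116 library, 83.8% in DLD-1 and 84.1% in SW620, against 77.7% in HCEC-1CT. In HCT116 the gene value lay instead on the longer coding transcript ATP5PB-202, with 96.2%. Because FPKM divides by length, this assignment bears on the gene value: from estimated fragments scaled to depth, ATP5PB had log2 ratios of 0.46 for HCT116, 1.27 for DLD-1 and 0.65 for SW620, so the value of −0.74 in HCT116 from FPKM changes sign. On coding transcripts alone the HCT116 ratio was 1.87. NDUFB8-203 held 79.5% of NDUFB8 in DLD-1, was listed at 0 in HCT116 and SW620, and held 5.43% in HCEC-1CT, while NDUFB8-201 led in the other lines. NDUFS4, an accessory subunit of the NADH module known from Leigh syndrome, had 53.0% of its HCEC-1CT value on NDUFS4-205, a transcript annotated for nonsense-mediated decay. That transcript held 0.0425% in the HCT116 library, 0.158% in DLD-1 and 0.0943% in SW620. Transcripts annotated as coding held 43.5%, 89.8% and 69.5% of NDUFS4 in HCT116, DLD-1 and SW620, against 10.7% in HCEC-1CT. At gene level the log2 ratios of NDUFS4 were 1.27 for HCT116, 0.69 for DLD-1 and 0.41 for SW620, past 2-fold only in HCT116. On coding transcripts alone, the smaller part of its HCEC-1CT value, they were 2.84, 3.28 and 2.65 in the same lines. In HCT116 a transcript without an annotated type led, with 48.9% of the gene value.

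Over all members, coding transcripts alone gave 53 higher in HCT116 (background 30.7%), 27 in DLD-1 (background 26.5%), 55 in SW620 (background 28.3%) and 20 in all 3 (background 11.4%). Of the 16 genes higher in all 3 lines, 14 were among these 20, and NDUFA13 and NDUFC1 were not. Estimated fragments scaled to depth, available for 74 members, gave 45 higher in HCT116 (60.8%, background 30.3%), 19 in DLD-1 (25.7%, background 26.9%), 49 in SW620 (66.2%, background 27.8%) and 14 in all 3 (18.9%, background 11.4%).

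**Figure D3:**
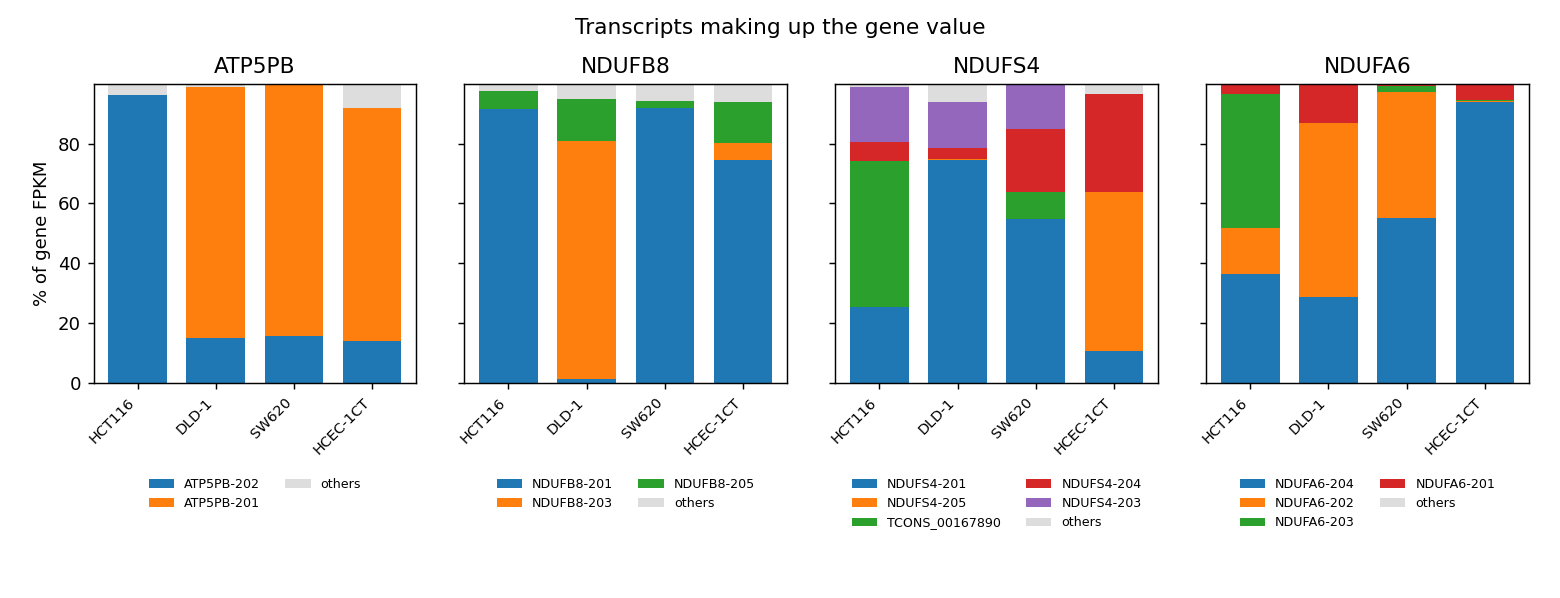
Share of the gene FPKM (%) held by each transcript of ATP5PB, NDUFB8, NDUFS4 and NDUFA6 in each cell line, as stacked bars of 1 library each. ATP5PB-201 is missing in HCT116, NDUFB8-203 leads in DLD-1 alone, and NDUFS4-205 is visible only in HCEC-1CT.

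Subunit genes are short, and short genes as a class were higher in the cancer lines. The most abundant transcript of a member had a median length of 841.5 bases, against 2901 for nuclear coding genes with at least 1 FPKM in every library. Among such coding genes, the 781 under 1000 bases had median log2 ratios of 0.78 for HCT116, 0.55 for DLD-1 and 0.70 for SW620, and the 8300 longer ones 0.30, 0.36 and 0.23. Members under 1000 bases (46 compared) had medians of 1.31, 0.75 and 1.25, and the 37 longer members 0.77, 0.52 and 0.99. In both length classes the members' medians were above those of the coding genes in each line, by the least in DLD-1. Of the 37 longer members, 16 were higher in HCT116, 6 were in DLD-1 and 18 were in SW620. These are 43.2%, 16.2% and 48.6% in the same lines, beside 22.8%, 22.5% and 20.6% of the longer coding genes. DLD-1 thus lay below the share of its length class. In all 3 lines, 2 of the longer members were higher (5.41%), also below the 7.92% of the longer coding genes. Of the 46 shorter members, 14 were higher in all 3 (30.4%, against 16.3% of the shorter coding genes). The part of transcript length, and of any difference in RNA fragmentation, was not tested.

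**Figure D4:**
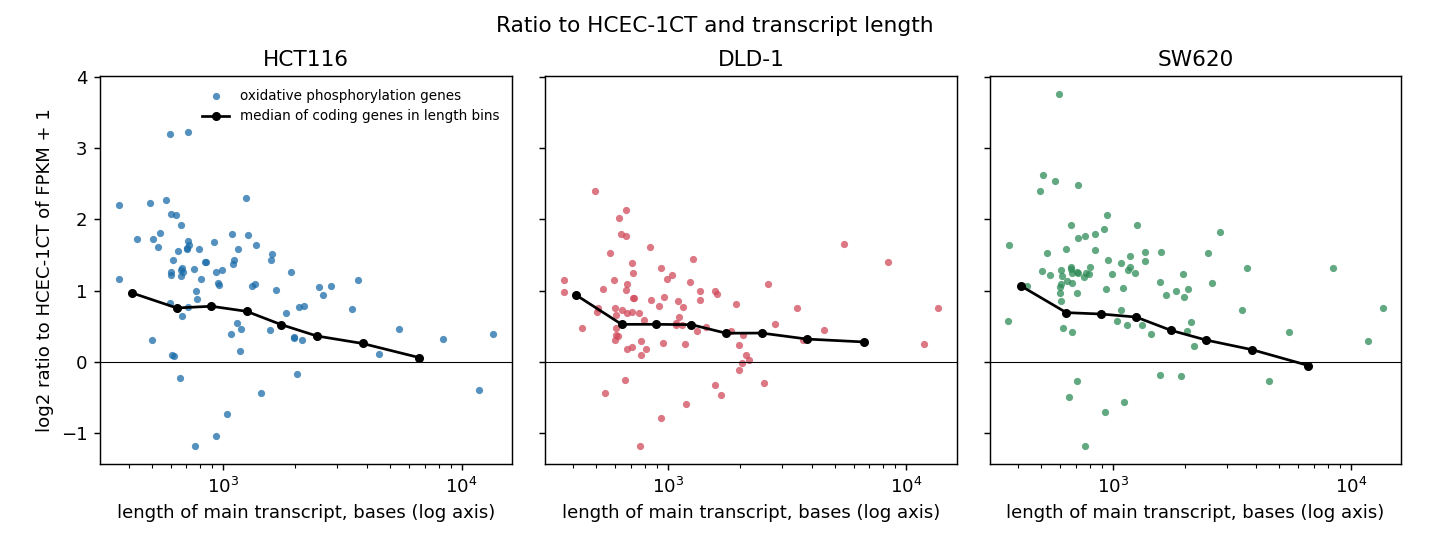
Log2 ratio of FPKM plus 1 to HCEC-1CT against the length of the most abundant transcript (bases, log axis) for members (points), 1 panel per cancer line, with the median of expressed nuclear coding genes in length bins (black line). The black line falls with length from 0.97 to 0.06 in HCT116, from 0.93 to 0.28 in DLD-1 and from 1.06 to −0.05 in SW620, and most members lie above it in HCT116 and SW620.

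Median ratios of ribosomal protein genes, many of them short as well, also lay above HCEC-1CT. Of 78 mitochondrial ribosomal protein genes, 37 were higher in HCT116, 21 were in DLD-1 and 42 were in SW620, and 0, 2 and 0 were lower, with medians of 0.97, 0.75 and 1.12. The shares higher were 47.4%, 26.9% and 53.8% in these lines, against 26.9%, 25.9% and 24.8% of all genes. Of all genes, 13.1%, 12.9% and 14.1% were lower. Of 82 cytosolic ribosomal protein genes, 60, 13 and 23 were higher in HCT116, DLD-1 and SW620, while 2, 2 and 3 were lower, with medians of 1.31, 0.43 and 0.67. The pattern of DLD-1 lowest was shared with both, and the share of higher genes in SW620 was nearer to that of the mitochondrial ribosome. The 13 messenger RNAs of the mitochondrial genome, which encode the remaining subunits, had medians of 3.51 for HCT116, 1.03 for DLD-1 and 1.66 for SW620. Of them, 12, 7 and 10 were higher (92.3%, 53.8% and 76.9%) and 0, 1 and 0 lower. MT-ND4, a complex I subunit, was the lower one, with 8027 FPKM in HCT116, 99.5 FPKM in DLD-1 and 2544 FPKM in SW620, against 451 in HCEC-1CT. Whether the nuclear and mitochondrial differences are linked was not tested.

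**Figure D5:**
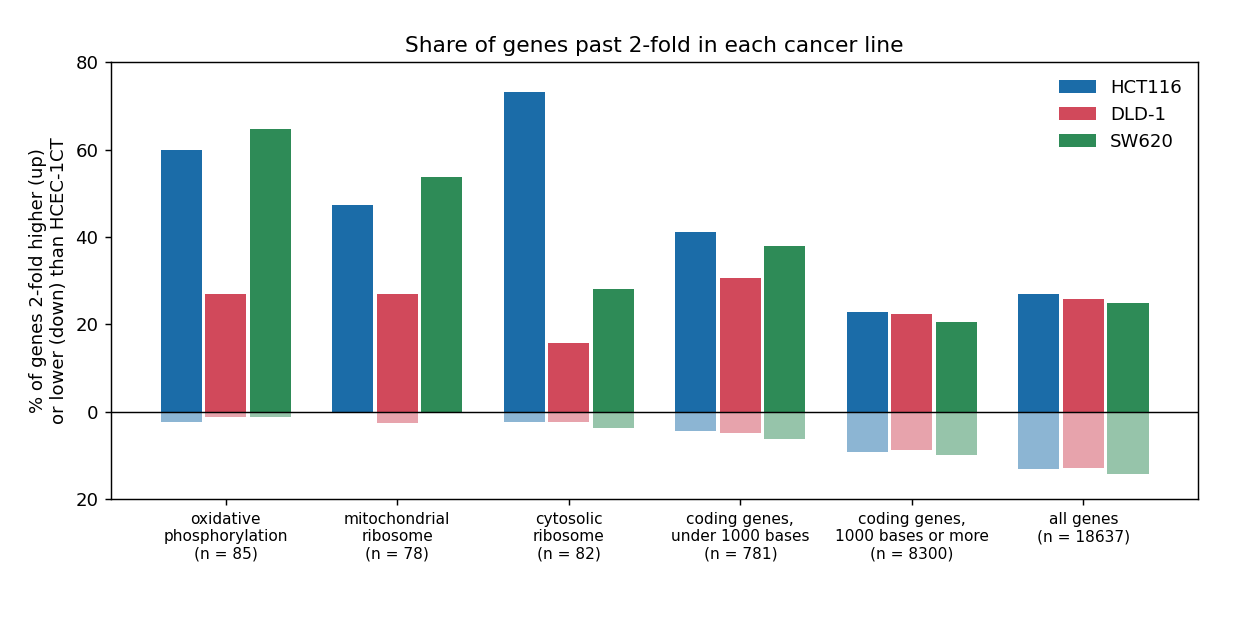
Percentage of genes at least 2-fold higher (upward bars) or lower (downward, paler bars) in each cancer line than in HCEC-1CT, for members, ribosomal protein genes, expressed coding genes by length and all genes compared. The members' upward bars reach 60% in the HCT116 library, 27.1% in DLD-1 and 64.7% in SW620, against 26.9%, 25.9% and 24.8% of all genes.

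Factors that assemble complex I had smaller median ratios than its subunits in HCT116 and SW620, and a larger one in DLD-1. Of 17 complex I assembly factors, 4, 4 and 6 were higher in HCT116, DLD-1 and SW620 and none was lower, with medians of 0.52, 0.76 and 0.75, beside 1.17, 0.59 and 1.26 for the subunits. The shares higher were 23.5%, 23.5% and 35.3%, against 26.9%, 25.9% and 24.8% of all genes, so only SW620 lay above that share. NDUFAF4 and NDUFAF6 passed in all 3 lines (11.8% of the list, background 9.35%). NDUFAF4 had 6.30 FPKM in HCT116, 4.47 FPKM in DLD-1 and 4.27 FPKM in SW620, against 1.32 in HCEC-1CT. NDUFAF8 and NDUFAF2 had the highest median ratios of the list, passing in HCT116 and SW620, while ECSIT had 16.2, 9.22 and 8.31 FPKM in the cancer lines, against 10.9 in HCEC-1CT. Of 4 complex II factors, 2, 1 and 3 were higher, and of 6 complex III factors, 3 were higher in each line, BCS1L, the chaperone that inserts the Rieske protein, in all 3. These are 50%, 25% and 75% of the complex II factors and 50% of the complex III factors in each line. Of 24 complex IV factors, 13, 7 and 9 were higher in HCT116, DLD-1 and SW620 and 1, 0 and 0 lower, with medians of 1.04, 0.49 and 0.75. Their shares higher were 54.2%, 29.2% and 37.5%. COX20, COX11, COA6 and CMC1, which serve copper delivery or subunit maturation, passed in all 3 (16.7% of the list). COX20 had 13.4 FPKM in HCT116, 7.31 FPKM in DLD-1 and 21.5 FPKM in SW620, against 1.95 in HCEC-1CT. Of 4 ATP synthase factors, 1, 1 and 0 were higher (25%, 25% and 0%).

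Among 17 genes for mobile electron carriers and the enzymes that feed them, 7 were higher in each cancer line and none was lower. This share of 41.2% compares with 26.9%, 25.9% and 24.8% of all genes in HCT116, DLD-1 and SW620. COQ8A, PDSS1 and COQ3 of ubiquinone synthesis, DHODH of pyrimidine synthesis and ETFB, which takes electrons from fatty acid oxidation, passed in all 3. These are 29.4% of the list, against 9.35% of all genes. ETFB had 41.5 FPKM in HCT116, 26.7 FPKM in DLD-1 and 80.3 FPKM in SW620, against 8.55 in HCEC-1CT. CYCS, cytochrome c itself, had 47.1 FPKM in HCT116, 23.2 FPKM in DLD-1 and 29.1 FPKM in SW620, against 13.5 in HCEC-1CT, and passed in HCT116 and SW620. Of 5 compared carriers and uncoupling proteins, 3 were higher in every cancer line (60%, background 9.35%). SLC25A5, the ADP/ATP carrier of dividing cells, had 195 FPKM in HCT116, 149 FPKM in DLD-1 and 248 FPKM in SW620, against 39.3 in HCEC-1CT. SLC25A4, the carrier form known from heart and muscle, had 14.6, 7.22 and 16.6 FPKM in the cancer lines, against 0.176 in HCEC-1CT. UCP2, an uncoupling-protein relative, had 4.89, 11.6 and 10.4, against 0.640. The phosphate carrier SLC25A3 had 104 FPKM in HCT116, 117 FPKM in DLD-1 and 65.9 FPKM in SW620, against 104 in HCEC-1CT, without passing.

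Genes for the known regulators of mitochondrial biogenesis were mostly level. Of 15 compared, 4 were higher in HCT116, 0 were in DLD-1 and 2 were in SW620, none was lower, and none passed in all 3. These shares of 26.7%, 0% and 13.3% were near or below the 26.9%, 25.9% and 24.8% of all genes. NRF1 had 5.24 FPKM in HCT116, 6.49 FPKM in DLD-1 and 6.28 FPKM in SW620, against 6.98 in HCEC-1CT, and GABPA had 10.1, 12.9 and 10.8, against 10.7. TFAM, which packages and transcribes mitochondrial DNA, had 8.12 FPKM in HCT116, 11.2 FPKM in DLD-1 and 17.1 FPKM in SW620, against 12 in HCEC-1CT. PPARGC1A, the coactivator PGC-1alpha, was at 0.0563, 0 and 1.04 FPKM in HCT116, DLD-1 and SW620, against 0.918 in HCEC-1CT. POLRMT, the mitochondrial RNA polymerase, had 55.4 FPKM in HCT116, 15.2 FPKM in DLD-1 and 27.7 FPKM in SW620, against 9.21 in HCEC-1CT, and passed in HCT116 and SW620. Messenger levels do not show the activity of these factors.

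Promoters of 68 members were found in the RefSeq table, and windows of 300 bases around the first listed start were searched on both strands. The NRF1-like motif was in 23.5% of them, against 13.7% of 7519 expressed coding genes and 6.28% of all 27305 promoters. The ETS-like motif was in 27.9%, against 22.8% and 10.7% of the same sets, and at least 1 of the motifs was in 47.1%, against 33.3% and 15.7%. By complex, at least 1 motif was found in 11 of 32 promoters of complex I, 3 of 3 of complex II, 6 of 7 of complex III, 6 of 14 of complex IV and 6 of 12 of the ATP synthase. Members with either motif had median log2 ratios of 1.26 for HCT116, 0.75 for DLD-1 and 1.23 for SW620, and those without had 1.16, 0.69 and 1.25. For the NRF1-like motif the medians were 0.77, 0.54 and 1.02 in these lines for 15 compared members that held it, and 1.26, 0.72 and 1.27 for 50 that did not. With the ETS-like motif they were 1.40, 0.76 and 1.30 for 19 members that held it, and 1.13, 0.69 and 1.24 for 46 that did not. These matches are descriptions of letters and not measured binding sites.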

How the data were processed

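The values used are FPKM per gene and per transcript as deposited by the authors, in 1 library for each of 4 lines; 1 value column in each table matched no sample and was not used. FastQC and HISAT2 with the build hg38 are named per the submitters' processing notes, without versions. The tool that quantified FPKM, its annotation release, the RNA selection and the strand setting were not given in the sources used here. Gene types and lengths came from GENCODE 29, matched by ID for 58275 of 58740 genes. Transcripts number 207345.

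Log2 ratios of FPKM plus 1 were taken for genes with at least 1 FPKM in a library and counted at 2-fold; this pseudocount understates differences of low genes. Without replicates no test was run. Depth was estimated from the steps between low values of single-transcript genes, and standard errors from it cover counting error only. The calling was run on simulated data with planted 4-fold changes and counting noise only. That check cannot show errors from differences between libraries or from transcript assignment. Which gene families and lists to describe was chosen with earlier results of these data known; within the families, the naming rule took every matching gene. Genes were named by rule: members passing in all 3 lines, the extremes of each complex and list, core subunits, paralogues and transcript switches; not all are printed, 1 member is counted but not reported here, and NDUFS5, NDUFC2, COX5B, COX6C, NDUFAB1, NDUFA9, NDUFB4, NDUFB5, ATP5F1D, ATP5PD, ATP5PF and ATP5MD were added after their values were seen. Of the members, 46 have named pseudogenes (160 in all) and 43 overlap a coding gene, so their reads may be shared. Python 3.11.15, numpy 2.4.6, pandas 2.3.3 and matplotlib 3.10.9 were used. Alternatives changed the pseudocount, scaling, filter, fold, transcripts and member set.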

Additional observations from a re-analysis of the deposited data

How the results depend on the processing

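Counts below are of members higher in HCT116, DLD-1, SW620 and all 3 lines in turn, against 51, 23, 55 and 16 in the report; no total or median turned its direction. Single values did: of 255, 23 changed sign under scaling by the median ratio, 12 under the total of all genes, 3 under the nuclear coding total and 10 on coding transcripts alone, as did 5 of 222 on estimated fragments. Of these, only NDUFC1 (−0.19) and COX6C (−0.55), in SW620 on coding transcripts, had passed 2-fold. Scaling by the median ratio gave 31, 10, 32 and 6, medians of 0.80, 0.29 and 0.93, and 2 lower in each of DLD-1, SW620 and all 3 lines, NDUFV2 joining COX7A1. Scaling to the total of all genes gave 25, 34 and 7 in HCT116, SW620 and all 3, with medians of 0.72 and 0.95 in HCT116 and SW620, and scaling to the nuclear coding total gave medians of 1.06 and 1.09 there. With a pseudocount of 5, 9 passed in all 3, the medians were 0.97, 0.59 and 1.02, and 0 were lower; with 0.1, 2 were lower in DLD-1. At 5 FPKM or more, 1 was lower in HCT116 and 0 elsewhere. Members without a named pseudogene (39 compared) gave 26, 9, 24 and 7, with 1 lower in HCT116. Those with a transcript of 1000 bases or longer (37) gave 16, 6, 18 and 2, medians of 0.77, 0.52 and 0.99, and 0 lower. Coding transcripts alone gave 2 lower in DLD-1 and in SW620; for single genes this was added after the data were seen. At 1.5-fold, 49 were higher in DLD-1 and 38 in all 3, with 3, 2 and 2 lower in DLD-1, SW620 and all 3; at 4-fold, 8, 3, 7 and 1 were higher and 0 lower. From estimated fragments scaled to depth (74 compared), also added then, 0 were lower and 14 were higher in all 3, 11 of them among the 16; DLD-1 and SW620 alone, also added later, shared 19 higher members. Fewer members enter some of these sets; the cause of the other shifts was not tested. The estimates of depth leave members under 100 fragments least certain. No paired analysis was possible because each line has 1 library.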
